A study of Mus musculus with 20 samples.

Results

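The core genes of the Hedgehog signalling pathway were examined in fetal mouse lung: the ligand Shh, the receptor Ptch1, the signal transducer Smo, the transcription factors Gli1, Gli2 and Gli3, and the inhibitors Hhip and Sufu. They were taken by symbol, as all probe sets whose only gene was one of the 8, which gave 13 probe sets for 8 of the 12393 genes on the array. The study compared C57Bl6 embryos whose mesenchymal cells lack the glucocorticoid receptor (GR) with controls at 2 embryonic stages, E18.5, close to birth, and E16.5, both counted in days after mating. The mutants (GRCol1-Cre) carry Cre under the collagen type I alpha 2 locus together with the floxed GR gene, and the controls carry the floxed gene (GR flox), so the floxed allele is common to all groups. There were 5 E18.5 mutants, 5 E18.5 controls, 5 E16.5 mutants and 5 E16.5 controls, 1 animal per array. RNA came from the whole left lung lobe, in which fewer cells of a type and less RNA per cell cannot be told apart.

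Hedgehog ligand is made by lung epithelium and acts on the mesenchyme around it. Without ligand, Patched (Ptch1) holds Smoothened (Smo) inactive. When ligand binds Patched, Smo is released, moves into the primary cilium and lets the Gli proteins act as activators. Gli1, Ptch1 and Hhip are themselves transcribed in response to the signal, so that Ptch1 and Hhip feed back on it: Hhip binds the ligand at the cell surface, while Sufu holds the Gli proteins back inside the cell. In the developing lung the pathway is known for its part in branching and in the growth and patterning of mesenchyme and airway smooth muscle.

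All values are log2 expression values that the authors made with GCRMA, so a difference of 1 is a factor of 2, and a value below 4 is called dim. Genes that passed 4 on 5 or more of the 20 arrays were tested, and a gene was called where its limma adjusted p was under 0.05 over the 8068 genes tested. Array medians were 5.70 to 5.87. The lung markers Sftpc (14.60 to 15.22) and Sftpb (7.86 to 12.66) were bright on every array, as was the lung mesenchyme factor Tbx4 (8.42 to 9.15), but the probe set of the lung epithelial factor Nkx2-1 was dim on every array (1.87 to 2.63). Nr3c1, the GR gene, was lower in mutants by -1.62 at E18.5 (SE 0.17, limma adjusted p = 1.62e-06) and by -1.72 at E16.5 (SE 0.17, adjusted p = 1.66e-05). By Xist and Y-linked genes, 2 of 5 E18.5 mutants, 3 of 5 E18.5 controls, 5 of 5 E16.5 mutants and 1 of 5 E16.5 controls were female. E18.5 control replicate 3 stood apart from the other 4 E18.5 controls. Stage position here is a scale over the 8068 genes tested. It puts the mean of E18.5 controls at 1 and that of E16.5 controls at 0. Each control array was left out of the means used for its own position. E18.5 control replicate 3 lay at 0.704 and the other E18.5 controls at 1.02 to 1.09. Some of the results that this control affects are also given without it. The E18.5 mutants were spread on this scale too. Mutant replicates 3 and 5 lay at 0.765 and 0.769, and mutant replicates 1, 2 and 4 at 0.519, 0.525 and 0.452.

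Of the 8 genes, 6 were tested. Shh was dim on all 20 arrays, at 2.68 ± 0.17 in E18.5 mutants, 2.68 ± 0.19 in E18.5 controls, 2.55 ± 0.03 in E16.5 mutants and 2.55 ± 0.02 in E16.5 controls (SD, n = 5 each). Gli3, the Gli factor best known as a repressor, was dim on all arrays too, at 2.09 ± 0.03, 2.10 ± 0.03, 2.12 ± 0.03 and 2.12 ± 0.02 in the same order of groups. A dim probe set gives no measure of these genes, so the level of the ligand and of the Gli repressor is not known from these arrays. The second probe sets of Ptch1 and Sufu were dim as well.

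At E18.5, 3 of the 6 tested genes were higher in mutants, against 18.6% of all genes tested, and 0 were lower, against 15.9%. These were Smo, Gli1 and Gli2, the transducer and both measured Gli factors. Of all genes tested, 34.5% were called in either direction at this stage, so the number of calls among the members is no result in itself; their median difference was 0.36, against 0.03 over all genes. The negative regulators did not share one direction: Ptch1 and Sufu read slightly higher in mutants and Hhip lower, none of them past the threshold.

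Smo (chr6:29735497-29761366, GRCm38.p6), the membrane protein that passes the signal inward, read 9.32, 9.23, 9.08, 9.37 and 9.11 in E18.5 mutants, against 8.36, 8.59, 8.96, 8.65 and 8.40 in E18.5 controls. All 5 mutants lay above all 5 controls, as for 8.27% of all genes tested, and the highest control was replicate 3. The difference was 0.63 (SE 0.10, 95% interval 0.43 to 0.84), or 1.55-fold (limma adjusted p = 9.51e-05), and it was 0.72 without control replicate 3. A second Smo probe set read 9.18, 8.90, 8.78, 9.09 and 8.81 in E18.5 mutants, against 8.14, 8.28, 8.74, 8.29 and 8.26 in E18.5 controls. It differed by 0.61 (SE 0.13, adjusted p = 0.0014 over 13510 probe sets, of which 31.1% were called), so both probe sets gave nearly the same size.

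Gli2 (chr1:118834061-119054405), the main activator of the family at the start of a response, read 8.02, 7.74, 7.62, 7.96 and 7.86 in E18.5 mutants, against 7.25, 7.36, 7.50, 7.48 and 7.00 in E18.5 controls. Again every mutant lay above every control, which held for 8.27% of all genes tested. The difference was 0.52 (SE 0.13, 95% interval 0.26 to 0.79), or 1.44-fold (limma adjusted p = 0.00401). The second, weaker Gli2 probe set read 5.29, 4.99, 5.49, 5.45 and 5.28 in mutants, against 5.31, 4.41, 5.21, 4.94 and 4.87 in controls. There the groups overlapped and the difference of 0.35 (SE 0.16) was not called over the probe sets (adjusted p = 0.101), so the call on Gli2 rests on the brighter probe set.

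Smo and Gli2 are the 2 genes whose E18.5 mutants lay wholly above the controls and whose interaction with stage was called, as given further on, and the 250 bases before the start that RefSeq's promoter table uses are shown for that reason. For Gli2 that start lies inside the gene span given above, downstream of its outer end. The sequences are from RefSeq (GRCm38.p6), for Smo chr6:29735247-29735496 on the plus strand and for Gli2 chr1:119053620-119053869 on the minus strand, read 5′ to 3′. Capitals mark a GC box (GGGCGG on either strand), a motif searched after the values were seen.
Smo: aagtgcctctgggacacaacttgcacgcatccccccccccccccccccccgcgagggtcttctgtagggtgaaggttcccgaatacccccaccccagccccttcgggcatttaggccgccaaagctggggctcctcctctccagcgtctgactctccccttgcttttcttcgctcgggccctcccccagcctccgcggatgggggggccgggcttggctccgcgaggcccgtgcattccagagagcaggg
Gli2: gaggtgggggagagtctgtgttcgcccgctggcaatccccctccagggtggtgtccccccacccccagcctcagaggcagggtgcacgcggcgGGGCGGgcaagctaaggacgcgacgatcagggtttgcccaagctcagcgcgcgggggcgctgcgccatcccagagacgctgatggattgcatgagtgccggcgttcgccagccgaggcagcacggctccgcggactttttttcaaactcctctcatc
The Gli2 stretch holds 1 GC box and 22 CG dinucleotides, and the Smo stretch holds 0 and 15, where 32.7% of 32851 such stretches hold a GC box and the median is 6 CG dinucleotides. Windows of 300 bases (250 before to 50 after the start) were at hand for 6 of the 8 genes: Smo, Gli2, Gli3, Ptch1, Hhip and Sufu. The Gli site GACCACCCA was found on neither strand in any of the 6, and 0.253% of all windows hold it. The full glucocorticoid response element (AGAACA, 3 bases of any kind, TGTTCT) was also in 0 of the 6 (0.00913% of all windows), and AGAACA by itself was in the Sufu window alone (19.0% of all windows). These are matches of letters in short windows and describe no binding.

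Gli1 (chr10:127329882-127341579), a transcriptional target often used as a readout of Hedgehog activity, read 5.55, 4.37, 5.38, 6.12 and 5.54 in E18.5 mutants, against 3.58, 4.56, 5.03, 3.82 and 3.70 in E18.5 controls. Of the mutants, 4 of 5 lay above all controls, while mutant replicate 2 lay inside the control range. Gli1 was dim in 3 of the 5 controls, so its level there is poorly measured. The difference was 1.26 (SE 0.30, 95% interval 0.63 to 1.88), or 2.39-fold (limma adjusted p = 0.00338), and 1.48 without control replicate 3. Leaving out any single array kept the calls of Smo (0.58 to 0.72), Gli2 (0.44 to 0.58) and Gli1 (1.07 to 1.51).

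Ptch1 (chr13:63508328-63573460), the receptor and the other standard target, was the brightest member. It read 12.06, 12.01, 11.98, 12.36 and 12.01 in E18.5 mutants, against 11.92, 11.73, 11.85, 11.97 and 11.97 in E18.5 controls. The groups did not overlap, as for 8.27% of all genes tested in this direction, but the step between them was narrow. The difference of 0.20 (SE 0.09, 95% interval 0.00 to 0.39) was not called (limma adjusted p = 0.111), but was with sex as a covariate (0.24, limma adjusted p = 0.0224). Thus the 2 targets that are usually read together gave values of 1.26 and 0.20, and whether they differ from each other was not tested. Hhip, also named above as transcribed in response to the signal, read -0.27 and was not called, as given next.

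Hhip (chr8:79965850-80058060), which binds ligand at the cell surface, pointed the other way. It read 8.72, 8.88, 8.69, 8.96 and 8.72 in E18.5 mutants, against 9.29, 9.10, 8.49, 9.09 and 9.37 in E18.5 controls. Control replicate 3 was the lowest of all 10 arrays, below every mutant, and the other 4 controls were above every mutant. With all arrays the difference was -0.27 (SE 0.16, 95% interval -0.61 to 0.06, limma adjusted p = 0.192), and without control replicate 3 it was -0.42 and called (adjusted p = 0.0218). The second Hhip probe set read 8.73, 8.52, 8.33, 8.58 and 8.22 in mutants, against 8.86, 8.77, 8.58, 8.85 and 9.00 in controls, a difference of -0.33 (SE 0.11) that was called over the probe sets (adjusted p = 0.0224). The call on Hhip therefore depended on the probe set and on 1 control.

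Sufu (chr19:46396896-46488804), which restrains the Gli proteins in the cytoplasm, read 8.15, 7.98, 8.16, 8.36 and 8.17 in E18.5 mutants, against 7.93, 8.17, 7.80, 7.90 and 7.99 in E18.5 controls. The groups overlapped through 1 low mutant and 1 high control. The difference of 0.21 (SE 0.09, 95% interval 0.02 to 0.39) was not called (limma adjusted p = 0.0781). It was called without E16.5 control replicate 5 (0.21, adjusted p = 0.0469), E18.5 control replicate 2 (0.26, adjusted p = 0.0369) or E18.5 mutant replicate 2 (0.25, adjusted p = 0.0459).

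**Figure D1:**
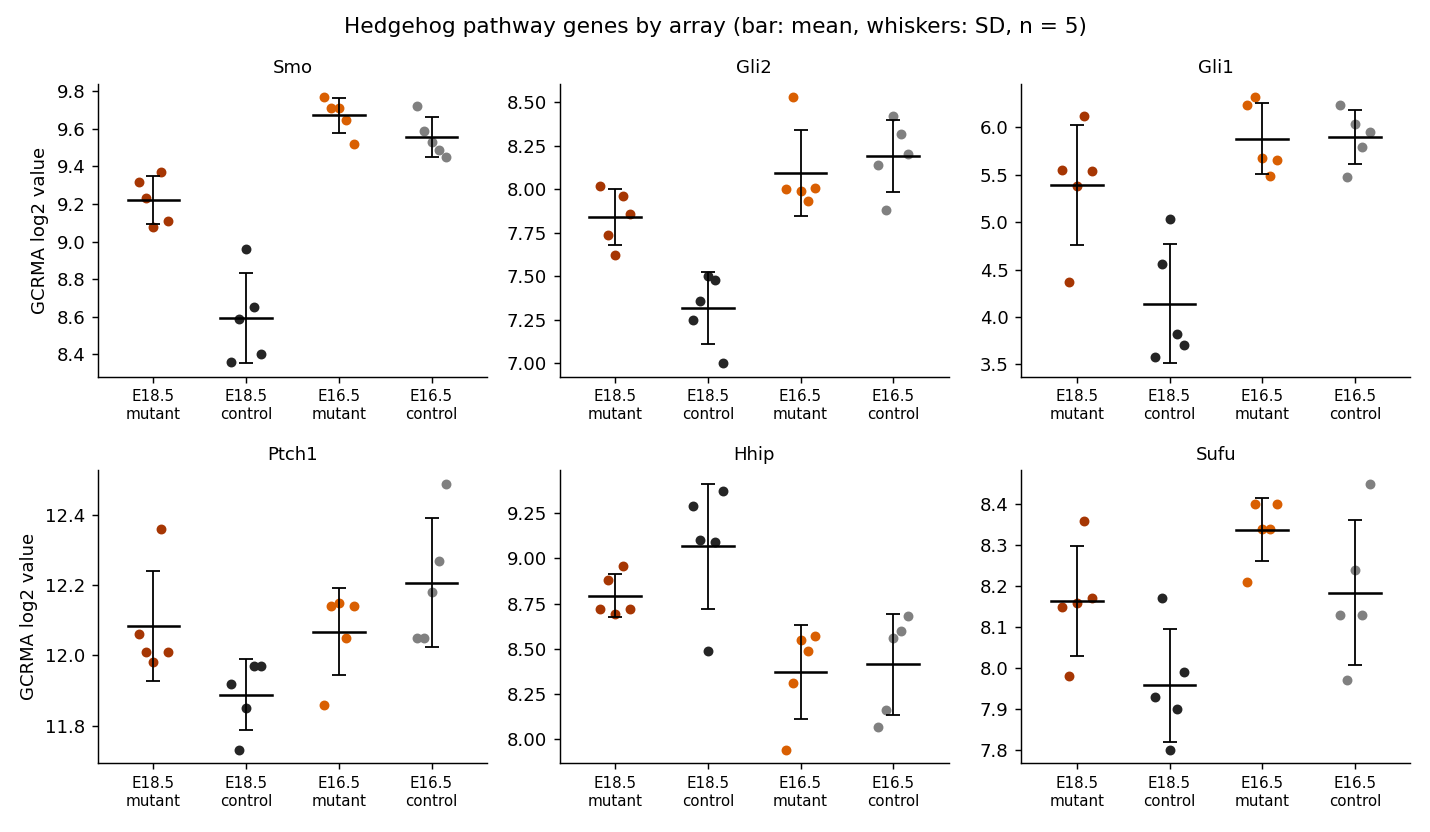
GCRMA log2 values (y axis) of the 6 tested Hedgehog genes on each of the 20 arrays, by stage and genotype (x axis), with the mean as a bar and the SD as whiskers (n = 5 per group). In Smo and Gli2 the E18.5 mutants lie wholly above the E18.5 controls; those of Smo lie below both E16.5 groups and those of Gli2, up to 8.02, overlap them, while Hhip runs the other way and its lowest E18.5 control is replicate 3, at 8.49.

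At E16.5, 0 of the 6 genes were called, by limma, and 0 had an unadjusted p under 0.05; of all genes tested, 0.248% were called and 356 had an unadjusted p under 0.05. Smo read 9.77, 9.71, 9.71, 9.65 and 9.52 in E16.5 mutants, against 9.72, 9.59, 9.53, 9.49 and 9.45 in E16.5 controls. Gli2 read 8.00, 8.53, 7.99, 7.93 and 8.01 in mutants, against 8.14, 7.88, 8.42, 8.32 and 8.20 in controls. Gli1 read 6.24, 6.32, 5.68, 5.49 and 5.66 in mutants, against 6.23, 5.48, 6.04, 5.79 and 5.95 in controls. In all 3 genes the E16.5 groups overlapped, and no member had groups that did not overlap at this stage (1.00% of all genes tested did).

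The intervals show what size of difference the E16.5 comparison still allows in a fit that leaves sex out. At this stage 5 of 5 mutants and 1 of 5 controls were female, so sex nearly coincides with genotype. The intervals therefore do not bound an effect of genotype alone. With sex as a covariate the Gli1 difference was 0.37, and under other settings of the fit Ptch1 and Hhip each reached -0.31. For Smo the difference was 0.12 (95% interval -0.09 to 0.32), and for Gli2 it was -0.10 (-0.36 to 0.16). Gli1 had the widest interval, with -0.02 (-0.64 to 0.60), so a change of Gli1 of that size in either direction could have been missed. Ptch1 averaged 12.07 ± 0.12 in E16.5 mutants and 12.21 ± 0.19 in E16.5 controls, a difference of -0.14 (-0.33 to 0.05). Hhip averaged 8.37 ± 0.26 in mutants and 8.42 ± 0.28 in controls (-0.04), and Sufu 8.34 ± 0.08 in mutants and 8.18 ± 0.18 in controls (0.15, -0.03 to 0.34; SD, n = 5 for each mean).

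All 6 tested genes were called by limma in E18.5 controls against E16.5 controls, 5 lower and 1 higher, where 70.9% of all genes tested were called (35.5% lower and 35.3% higher). In log2 units Gli1 fell by 1.76 (SE 0.30, limma adjusted p = 3.27e-05), to 4.14 ± 0.63 in E18.5 controls, against 5.90 ± 0.28 in E16.5 controls. Smo fell by 0.96 (SE 0.10, adjusted p = 6.13e-08), to 8.59 ± 0.24 against 9.56 ± 0.11, and Gli2 fell by 0.87 (SE 0.13, adjusted p = 5.70e-06), to 7.32 ± 0.20 against 8.19 ± 0.20. Ptch1 fell less, by 0.32 (SE 0.09, adjusted p = 0.00492), and Sufu by 0.23 (SE 0.09, adjusted p = 0.0287).

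The one gene that rose with stage in controls was the inhibitor Hhip, by 0.65 (SE 0.16, limma adjusted p = 0.00117), to 9.07 ± 0.34 in E18.5 controls against 8.42 ± 0.28 in E16.5 controls. Its second probe set rose by 0.88. The second probe sets of Smo and Gli2 fell by 0.89 and by 0.87, close to the brighter ones, where 68.3% of probe sets were called. The Sufu call was lost without E16.5 control replicate 3 (-0.21) or 5 (-0.16), or without E18.5 control replicate 1 (-0.22), 3 (-0.19) or 4 (-0.21). In the older control lungs the transducer, both Gli factors and the receptor were thus lower, and the ligand-binding inhibitor was higher.

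In the mutants, 2 of the 6 genes were called between the stages, where 56.2% of all genes tested were (28.7% higher and 27.6% lower). Smo fell by 0.45 (SE 0.10, limma adjusted p = 0.00072), to 9.22 ± 0.13 in E18.5 mutants against 9.67 ± 0.10 in E16.5 mutants. Hhip rose by 0.42 (SE 0.16, adjusted p = 0.0293), to 8.80 ± 0.12 against 8.37 ± 0.26. The Hhip call was lost without E16.5 mutant replicate 1 (0.31) or 2 (0.41), or E18.5 mutant replicate 2 (0.40) or 4 (0.38). Gli2 (-0.25), Gli1 (-0.48), Sufu (-0.17) and Ptch1 (0.02) were not called, although the second Gli2 probe set fell by 0.47 (adjusted p = 0.017 over the probe sets, of which 53.9% were called). With sex as a covariate Gli1 was called (-0.78, limma adjusted p = 0.0432). Sufu was called without E18.5 mutant replicate 4 (-0.22, adjusted p = 0.0415). Both stage comparisons share arrays with the mutant comparisons, so they are not separate evidence for one pattern.

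**Figure D2:**
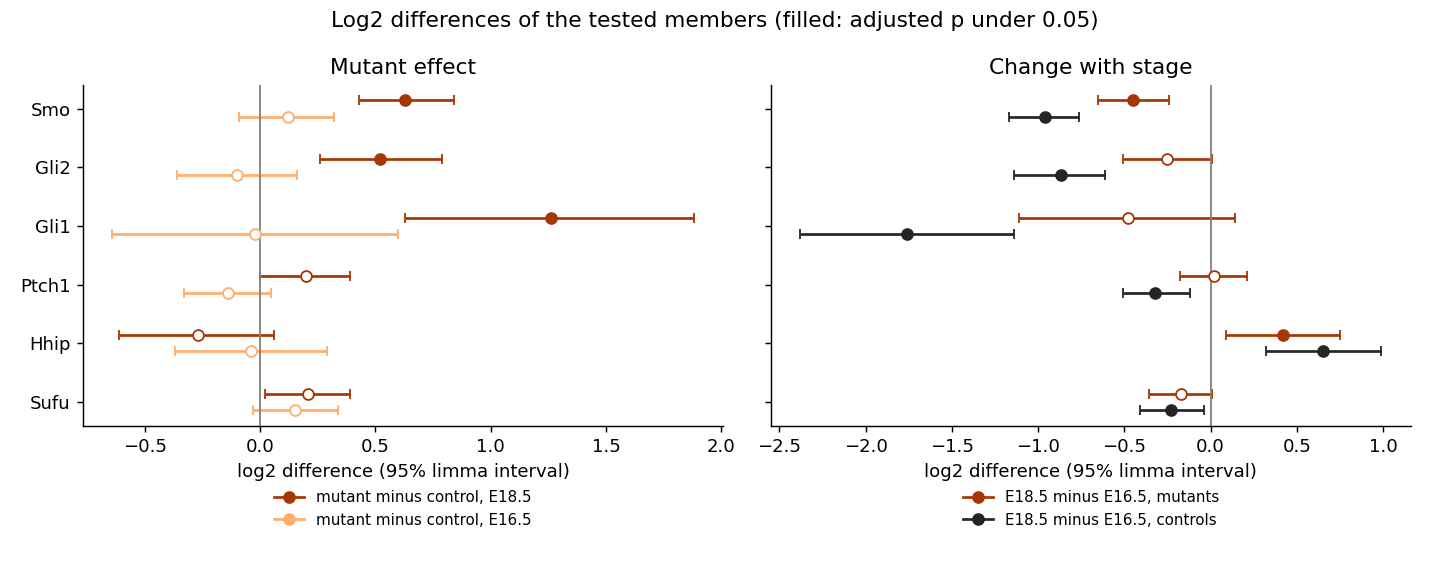
Log2 differences (x axis) of the 6 tested genes with their 95% limma intervals, on the left mutant minus control at each stage and on the right E18.5 minus E16.5 in each genotype; filled points had an adjusted p under 0.05. At E18.5 the mutant effects of Smo (0.63), Gli2 (0.52) and Gli1 (1.26) are filled, the E16.5 effects are all open and near 0, and all 6 control stage changes are filled.

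Whether the mutant effect itself differed between the stages was tested as an interaction, the effect at E18.5 minus the effect at E16.5. It was called for 2 of the 6 genes, both positive, where 8.40% of all genes tested were called (3.62% positive). For Smo it was 0.52 (SE 0.14, 95% interval 0.23 to 0.80, limma adjusted p = 0.0266), and for Gli2 it was 0.62 (SE 0.18, adjusted p = 0.0394). Gli1 had the largest value, 1.28, but also the largest error (SE 0.42, adjusted p = 0.0652). Ptch1 (0.34, adjusted p = 0.117), Sufu (0.05) and Hhip (-0.23) were not called, though with sex as a covariate Ptch1 was (0.55, limma adjusted p = 0.0185).

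These 2 interaction calls lay close to the threshold. With sex as a covariate both were lost, with 0.42 for Smo (limma adjusted p = 0.137) and 0.56 for Gli2 (adjusted p = 0.142); 5 of 5 E16.5 mutants and 1 of 5 E16.5 controls were female. Smo lost its call without E16.5 mutant replicate 5 (0.48), E18.5 control replicate 1 (0.46) or 5 (0.47), or E18.5 mutant replicate 4 (0.48), with limma adjusted p up to 0.0576. Gli2 lost its call without any of 13 arrays (0.54 to 0.65, limma adjusted p 0.0536 to 0.0786): E18.5 mutant replicates 1, 2 and 4, E18.5 control replicates 1, 2 and 5, E16.5 mutant replicates 1, 3, 4 and 5, and E16.5 control replicates 1, 3 and 4. Gli1 gained one without E18.5 control replicate 3 (1.50, adjusted p = 0.012) or E18.5 mutant replicate 2 (1.53, adjusted p = 0.024). The second probe sets of Smo (0.58, adjusted p = 0.0538) and Gli2 (0.40, adjusted p = 0.303) were not called over the probe sets, of which 6.45% were called. That the Gli2 effect differs by stage thus depends on the array set and on the probe set.

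Genes of cell division moved with the Smo and Gli differences. All 13 tested mitosis genes were called higher in E18.5 mutants than in E18.5 controls (median 1.01), where 18.6% of all genes tested were. Their mean per array was 8.48 to 9.79 in E18.5 mutants and 7.83 to 9.18 in E18.5 controls. The highest control, at 9.18, was replicate 3, which was also the highest control in Smo, Gli1 and Gli2. At E16.5 the mean was 9.95 to 10.51 in mutants and 10.30 to 10.56 in controls. With this mean as a covariate the E18.5 effect was 0.35 for Smo (limma adjusted p = 0.0227), 0.32 for Gli2 (adjusted p = 0.218) and 0.78 for Gli1 (adjusted p = 0.201). With the position of each array between the control stage means as a covariate, it was 0.25 for Smo (adjusted p = 0.0807), 0.26 for Gli2 (adjusted p = 0.368) and 0.59 for Gli1 (adjusted p = 0.386). That position was 0.452 to 0.769 in E18.5 mutants and 0.704 to 1.09 in E18.5 controls, so it nearly separates the genotypes, and neither covariate can be told apart from the genotype.

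For the cell type markers, higher and lower mean called by limma at E18.5 (adjusted p under 0.05). Of all genes tested, 18.6% were called higher and 15.9% lower. Of 11 tested mesenchyme markers, 2 were higher and 2 lower in E18.5 mutants. Their mean per array was 11.07 to 11.39 in mutants and 10.96 to 11.76 in controls. Of 13 epithelial markers, 5 were higher and 2 lower, with means of 10.74 to 11.07 in mutants and 10.50 to 10.88 in controls. Endothelial markers were lower in 8 of 10 (9.80 to 10.02 in mutants and 10.17 to 10.48 in controls), and smooth muscle markers were higher in 1 and lower in 1 of 9. All 3 tested mesothelium markers, Msln, Upk3b and Krt19 (also an epithelial marker), were lower, with a median of -1.19 and means of 9.31 to 10.05 in mutants and 10.88 to 11.07 in controls. Cartilage, another tissue in which Hedgehog genes are active, had 6 of 13 listed markers tested, of which Col9a1 (3.26) and Col9a3 (2.34) were higher and Hapln1 (-0.81) was lower. Their mean was 4.21 to 5.32 in mutants and 3.45 to 4.76 in controls, and the defining markers Acan and Matn1 did not pass the filter on dim genes. The part of any of these cell types in the Hedgehog differences was not tested.

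**Figure D3:**
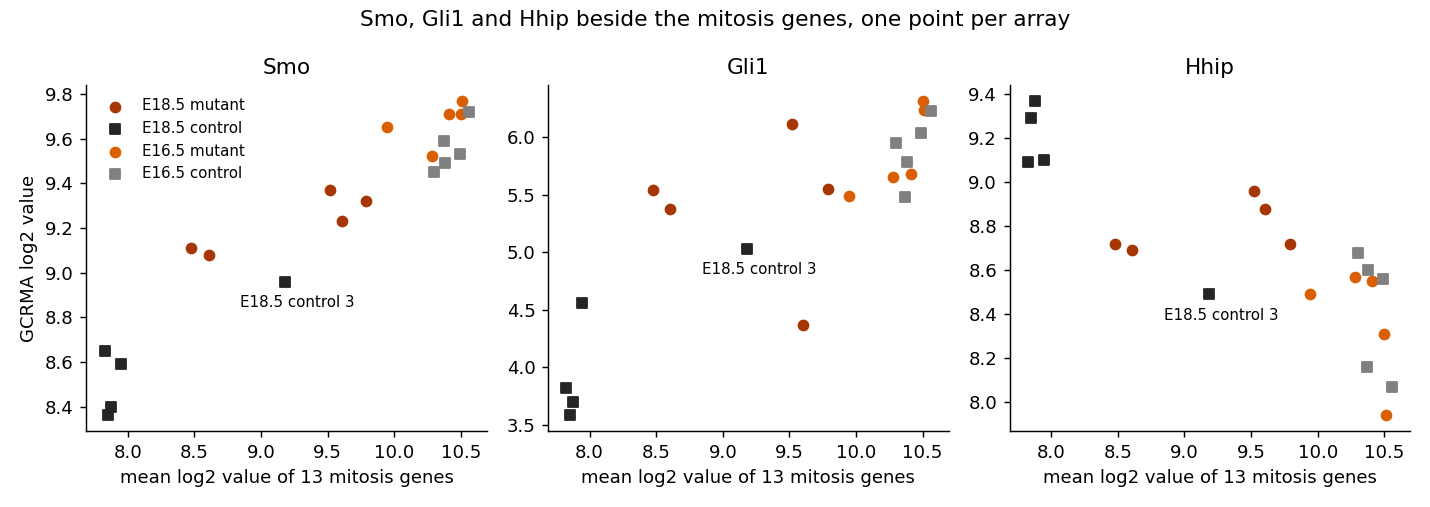
GCRMA log2 values (y axes) of Smo, Gli1 and Hhip against the mean log2 value of 13 mitosis genes on the same array (x axis), one point for each of 20 arrays, with mutants as circles and controls as squares. E18.5 control replicate 3, at a mitosis mean of 9.18, lies among the E18.5 mutants on the x axis and away from the other 4 E18.5 controls.

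Further genes of the pathway were taken from 6 lists by role. None of their tested genes was called at E16.5, where the largest values were -0.58 for Scube2 and -0.46 for Snai1. At E18.5, 18.6% of all genes tested were called higher and 15.9% lower, the background for each count that follows. Scube2, which helps release lipid-bearing Hedgehog ligand from the cells that make it, was the one tested gene of the 7 ligand and release genes, since Ihh, Dhh, Hhat and Scube1 were dim and Disp1 and Scube3 matched no gene on the array. It read 6.71, 6.68, 7.31, 6.20 and 6.97 in E18.5 mutants, against 9.45, 9.24, 7.37, 9.19 and 9.49 in E18.5 controls. Control replicate 3, at 7.37, lay just above the highest mutant, at 7.31, and well below the other controls. The fitted difference was -2.17 (SE 0.36, limma adjusted p = 0.000225), which left 0.221 of the control level, and -2.57 without control replicate 3. In controls it rose strongly between the stages, by 3.77, or 13.6-fold (SE 0.36, adjusted p = 3.94e-08), to 8.95 ± 0.89 in E18.5 controls against 5.18 ± 0.73 in E16.5 controls. In mutants it rose by 2.17, and the interaction of -1.59 was not called (adjusted p = 0.0613).

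Co-receptors showed no call. Boc (0.12), Gas1 (-0.06) and the glypican Gpc3 (0.48, limma adjusted p = 0.128) were the 3 tested of 6 genes that help or hinder ligand binding, and none was called between the stages in controls either. Gpc3 was called at E18.5 without E16.5 mutant replicate 1 (0.48, adjusted p = 0.0283).

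Between Smo and the Gli proteins, 2 of 9 tested genes were higher in E18.5 mutants and 0 lower, with a median of 0.12 against 0.03 over all genes; the share called higher was near the 18.6% of all genes. Evc, a protein at the base of the cilium that works with Smo, read 6.59, 6.57, 5.54, 6.33 and 5.66 in E18.5 mutants, against 4.74, 4.97, 5.90, 4.80 and 5.01 in E18.5 controls. Control replicate 3 lay inside the mutant range and the other 4 controls lay below it. The difference was 1.06 (SE 0.24, limma adjusted p = 0.00221), or 2.08-fold, and 1.26 without that control. Prkacb, a catalytic subunit of protein kinase A, which marks Gli proteins for processing, was higher by 0.21 (SE 0.07, adjusted p = 0.0276), a call lost without E18.5 control replicate 2 (0.18) or E18.5 mutant replicates 1 (0.20) or 4 (0.19). In controls Evc fell by 1.91 between the stages and Spop, an adaptor for Gli degradation, rose by 0.44. Of 17 tested genes of ciliary transport, 3 were higher and 0 lower at E18.5: Ift74 (0.30), Ift80 (0.29) and Kifap3 (0.22), with a list median of 0.13. That share too was near the 18.6% of all genes, and without E18.5 control replicate 3 there were 6 higher. The Ift80 call was lost without E18.5 control replicate 4 (0.24) or E18.5 mutant replicates 1 (0.26), 2 (0.23) or 4 (0.26). With the most variable probe set of each gene, the calls of Ift80 (0.15) and Kifap3 (0.09) were lost. Ift172 and Ift20 rose in controls between the stages, by 0.66 and 0.54.

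Among genes reported elsewhere as Hedgehog targets, 4 of 13 tested were higher in E18.5 mutants and 0 lower, with a median of 0.20 against 0.03 over all genes, where 18.6% of all genes were called higher. Without E18.5 control replicate 2 or 5 or E18.5 mutant replicate 5, 1 was called lower. Mycn, which drives growth, read 9.40, 9.25, 8.48, 9.50 and 8.67 in E18.5 mutants, against 7.38, 7.61, 8.49, 7.62 and 7.71 in E18.5 controls. Only control replicate 3 reached the lowest mutant. The difference was 1.30 (SE 0.20, limma adjusted p = 0.000103), or 2.46-fold, and 1.48 without that control. The cyclin Ccne1 was higher by 0.90 (SE 0.22, adjusted p = 0.00468). Both are also genes of proliferating cells, and both were lower in E18.5 controls than in E16.5 controls, where Ccne1 fell by 3.51 and Mycn fell by 1.79.

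Foxf2, a mesenchymal forkhead factor, had another course. It read 8.63, 8.51, 8.59, 8.89 and 8.59 in E18.5 mutants, against 8.03, 8.17, 7.96, 8.04 and 8.21 in E18.5 controls. Every mutant lay above every control, as for 8.27% of all genes tested. The difference was 0.56 (SE 0.09, limma adjusted p = 0.000112), or 1.47-fold, and its call was kept under all 35 alternatives, with stage position (0.53) and with the mitosis mean (0.56) as a covariate too. In controls Foxf2 stayed at 8.08 ± 0.10 at E18.5 against 8.08 ± 0.16 at E16.5, and in mutants it rose by 0.39 (adjusted p = 0.00101). Its interaction of 0.38 was not called (adjusted p = 0.0597). Bmp4, a growth factor of distal lung, was higher by 0.29 at E18.5 (SE 0.09, adjusted p = 0.0204), a call lost without E18.5 control replicate 1 (0.24) or E18.5 mutant replicate 1 (0.21). The paralogue Foxf1 (-0.07) and Ccnd1 (-0.10) were not called, and Sfrp1 read -1.12 (adjusted p = 0.0597). These 3 were picked after their values were seen. With stage position as a covariate the E18.5 values of Scube2 (-0.68), Evc (0.06), Mycn (0.40) and Ccne1 (0.12) were not called. That covariate nearly separates the genotypes and took the calls over all genes from 2784 to 584, so a call lost there was the usual outcome. With the mitosis mean Mycn kept its call (0.55, limma adjusted p = 0.00474), and Scube2 (-1.11), Evc (0.18) and Ccne1 (0.41) lost theirs.

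**Figure D4:**
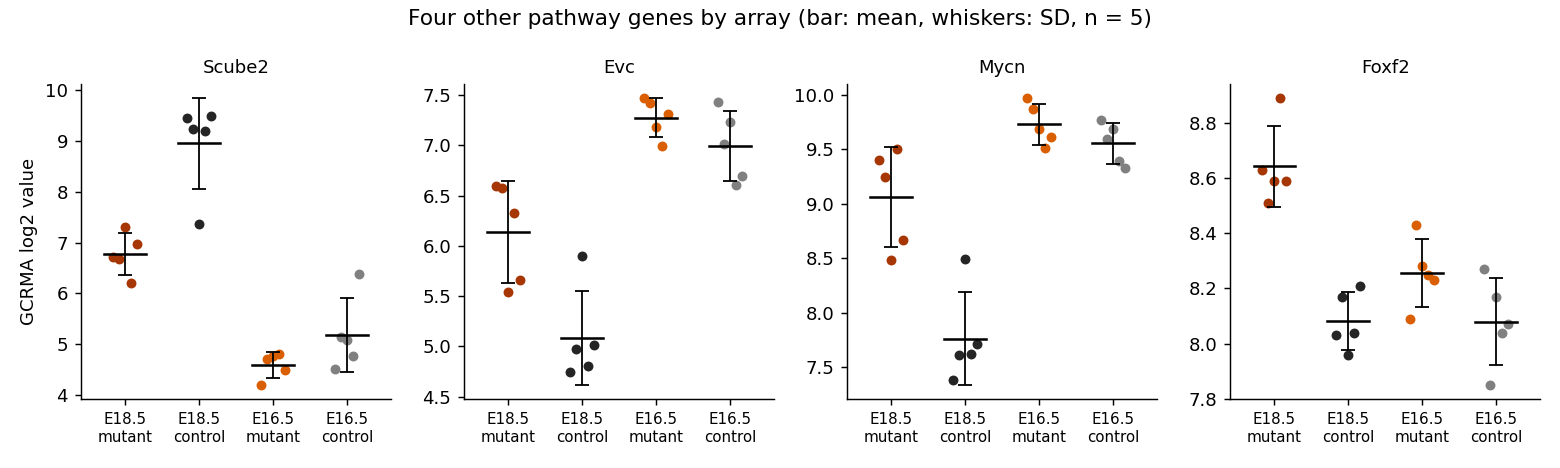
GCRMA log2 values (y axes) of Scube2, Evc, Mycn and Foxf2 on each array, by stage and genotype (x axes), with the mean as a bar and the SD as whiskers (n = 5 per group). The E18.5 mutant means of Scube2, Evc and Mycn lie between the E18.5 control mean and the E16.5 means, whereas Foxf2 is highest in E18.5 mutants (8.64 ± 0.15) and level in both control groups.

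Of 11 tested genes that work beside Hedgehog in lung growth, 4 were higher and 2 lower in E18.5 mutants, with a median of 0.02. The epithelial ligand Wnt7b was higher by 0.48 (limma adjusted p = 0.0267), and lost its call without E18.5 control replicates 1 (0.44) or 4 (0.39) or E18.5 mutant replicates 1 (0.41) or 4 (0.40). Its call was also lost with the mean of its probe sets (0.38) or with its most variable probe set (0.28). Fgf9, a ligand of epithelium and mesothelium, was higher by 0.47 (adjusted p = 0.0202) but averaged 3.95 ± 0.12 in E18.5 mutants and 3.48 ± 0.44 in E18.5 controls (SD, n = 5), which is dim in both. Tbx3, a mesenchymal T-box factor, was lower by -0.40 (adjusted p = 0.0288). It lost its call without E18.5 control replicates 1 (-0.37), 2 (-0.38) or 5 (-0.32) or E18.5 mutant replicate 2 (-0.28). Besides Bmp4, the other calls were Hoxa5 (0.20) and Tbx2 (-0.29), named after their values were seen. The 4 higher calls became 1 without E18.5 control replicate 1 or mutant replicate 1 and 2 without control or mutant replicate 4, and the 2 lower calls became 0 without control or mutant replicate 2 and 1 without control replicate 1 or control or mutant replicate 5.

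**Figure D5:**
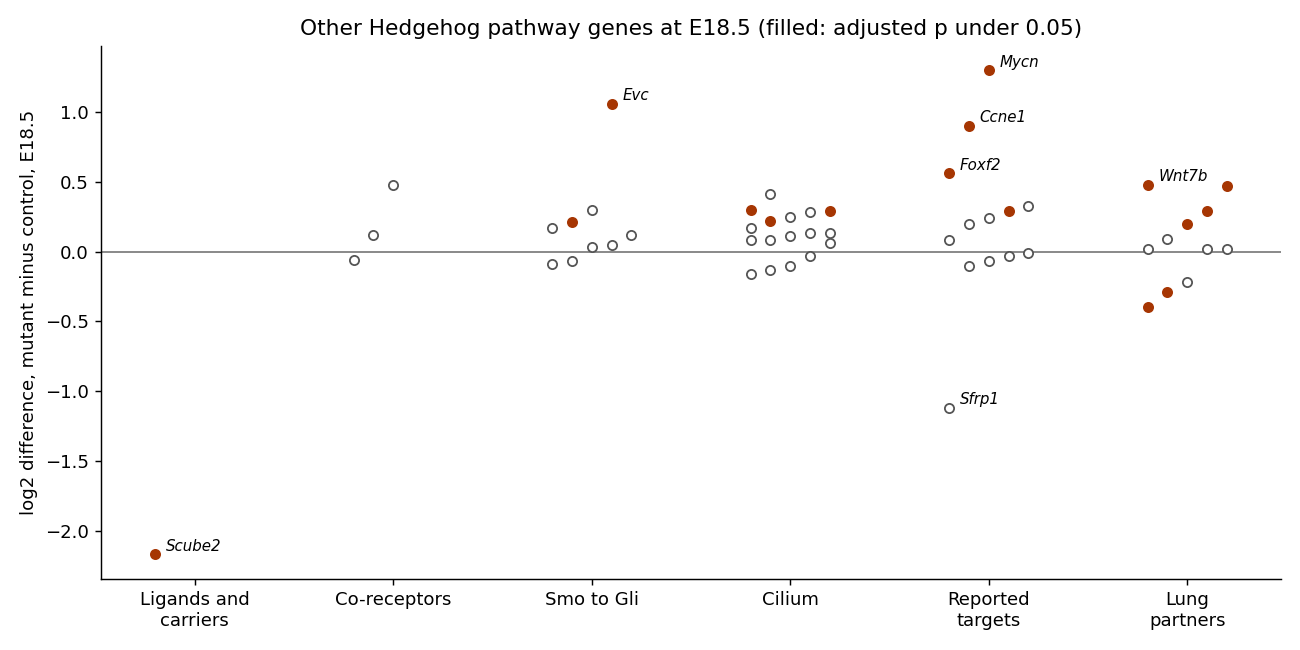
Log2 difference at E18.5, mutant minus control (y axis), of every tested gene of the 6 further pathway lists (x axis), with filled points for an adjusted p under 0.05. Scube2 (-2.17) lies far below 0, Mycn (1.30), Evc (1.06) and Ccne1 (0.90) lie highest, and every point of the co-receptor, Smo to Gli and cilium lists other than Evc lies at or below 0.48.

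Across all 20 arrays Smo, Gli1 and Gli2 varied together. As a description over arrays that share their 4 groups, Pearson r was 0.89 for Smo with Gli1, 0.88 for Smo with Gli2 and 0.88 for Gli1 with Gli2, and it was -0.86 for Smo with Hhip. With each array taken as its deviation from its group mean, the same pairs gave 0.60, 0.40, 0.56 and -0.71. Ptch1 followed Hhip and Sufu within groups (0.66 and 0.60) rather than Smo (-0.18).

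The genes most like each member over the 20 arrays were not Hedgehog genes. For Smo these were Fmod (r = 0.99, and 0.87 for deviations from group means) and Tgif2 (0.98 and 0.87), and for Gli2 they were Snai2 (0.93 and 0.81) and Snhg1 (0.92 and 0.59). Gli1 was most like Lcmt1 (0.95 and 0.82) and Adamts7 (0.93 and 0.74), and Hhip most like Smarca2 (0.97 and 0.92) and Shroom3 (0.95 and 0.89). Ptch1 was most like Rnf20 (0.86 and 0.89) and Sox6 (0.85 and 0.84), and Sufu most like Rbm25 (0.92 and 0.86) and Tle3 (0.88 and 0.74). These genes were taken as the highest r among the 8068 tested, so the values describe likeness and test nothing.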

How the data were processed

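Total RNA from left lung lobes was hybridised to Affymetrix Mouse430A_2 arrays. The authors deposited log2 values per probe set made with GCRMA, per the submitters' processing notes; no GCRMA version is stated there. Probe sets were named through the platform annotation. Of 22690 probe sets, 20380 name 1 gene, and the brightest over 20 arrays stood for each of 12393 genes. The filter (above 4 in at least 5 arrays) left 8068. Means of 4 groups were fitted with limma 3.58.1 (lmFit, eBayes) in R 4.3.3, two-sided, with Benjamini-Hochberg adjustment, and 13510 probe sets were fitted alike. On simulated data with 8068 genes, changes of 1 on the log2 scale were recovered in 91% of cases at E18.5, 92% at E16.5 and 81% for the interaction, and changes of 0.5 in 72%, 75% and 39%. The simulation changed a small share of the genes, with independent normal noise. Recovery after adjustment depends on that share, and in the real data 34.5% of genes were called at E18.5 and 0.248% at E16.5. These percentages therefore do not measure what the real comparisons could detect. Members and lists were chosen with earlier results of these data known. The naming rule took all members, Nr3c1, the 2 genes most like each tested member, and from each list up to 4 called genes per mutant comparison (up to 2 for development in controls), or the 2 largest as values. Precision is limited by 5 animals per group. Alternatives covered filter, normalization, probe set, arrays in the fit, variance model, weights, covariates, thresholds and leaving out each array. Gli protein identity was planned and not run here.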

Additional observations from a re-analysis of the deposited data

Results flagged for a closer look

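The interaction of genotype and stage was called for Smo (0.52) and Gli2 (0.62). The call was lost in 8 of 34 alternatives for Smo and in 21 of 34 for Gli2, for both with sex as a covariate. Of 36 groups of 5 values checked for 1 value far from the rest (a gap over 0.710 of the group's range), 4 had one, and chance gives about 1 in 20. These values were 12.36 for Ptch1 in E18.5 mutant replicate 4 (highest), 8.74 for the second Smo probe set in E18.5 control replicate 3 (highest), 5.54 for the second Gli2 probe set in E16.5 control replicate 2 (lowest) and 8.53 for Gli2 in E16.5 mutant replicate 2 (highest).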

How the results depend on the processing

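Over the members' 30 results and 1044 alternatives, 931 kept direction and side of the threshold. With the direction kept, 60 lost the call and 23 gained one, and 30 changed sign. A sign change was counted only as such, also where the call was lost with it, as for Smo and Hhip between stages with stage position. The cause of these changes was not tested. Of the members' calls, 3 at E18.5 became 0 with stage position and 1 with the mitosis mean as a covariate. The 6 between stages in controls became 0 with either, and the 2 in mutants became 0 with either, 4 with arrays centred on their median and 1 at an adjusted p under 0.01. Stage position is built from the control stage means over all genes tested, so as a covariate it takes up the stage difference itself. Lost calls and sign changes between stages with it were largely fixed in advance and do not test the members. They are included in the counts of 60 and 30 above. The 2 interaction calls became 1 with no filter, with the mean of probe sets, with the most variable probe set and with sex (there Ptch1, with Smo and Gli2 both lost), and 0 with stage position, with the mitosis mean and at 0.01. Without each array in turn the counts were 3 to 4 at E18.5, 0 to 0 at E16.5, 5 to 6 in controls, 1 to 2 in mutants and 0 to 3 for the interaction. Deviations from group means of same-numbered arrays had r of -0.429 to 0.597 over 30 pairs. Differently numbered arrays were not compared, so whether the numbers mark pairs is not known. With the replicate block the counts were 3 at E18.5, 0 at E16.5, 6 in controls, 2 in mutants and 1 for the interaction.

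At E16.5 signs changed for Gli1 with sex (0.37) and mitosis (0.02), for Hhip with the mean (0.03) or most variable probe set (0.10), for Gas1 with array weights (-0.07), and for Prkacb with the most variable probe set (-0.04) and sex (-0.05). At E18.5 they changed with stage position for Hhip (0.16), Boc (-0.07; mitosis -0.05), Ift74 (-0.00) and Wnt7b (-0.03). Between stages in controls they changed with stage position for Smo (0.01), Hhip (-0.46), Scube2 (-0.05), Gpc3 (0.86; mitosis 0.64), Boc (0.35; mitosis 0.22), Evc (0.63), Spop (-0.16), Ift172 (-0.06), Mycn (0.49), Wnt7b (0.25) and Fgf9 (0.15). In mutants they changed for Ptch1 with centring (-0.03), weights (-0.04) and stage position (-0.11), and with stage position for Smo (0.18), Gli1 (0.61; mitosis 0.02), Gli2 (0.17) and Hhip (-0.30). For the interaction they changed for Hhip with sex (0.10), stage position (0.17) and mitosis (0.06), and for Sufu with weights (-0.04). Without single arrays Gli1 (-0.13 to 0.08) and Hhip (-0.13 to 0.07) at E16.5, Ptch1 between stages in mutants (-0.05 to 0.04) and the Sufu interaction (-0.01 to 0.11) crossed 0. None of these values was called.

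Over all genes, 2784 calls at E18.5 became 884 with mitosis, 584 with stage position and 1645 at 0.01; 20 at E16.5 became 43 with weights, 38 with stage position, 31 with mitosis, 9 with the 2 groups alone, 8 with sex, 11 at 0.01 and 13 to 22 without single arrays. The 5718 in controls became 2045 with mitosis and 103 with stage position, and the 4538 in mutants 2821 and 547. The 678 for the interaction became 2244 with weights, 403 with sex, 130 with stage position, 125 with mitosis, 166 at 0.01, 1199 at 0.10 and 393 to 1445 without single arrays. Dim probe sets limit Shh, Gli3 and, at E18.5 in controls, Gli1.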
